A study of Mus musculus with 22 samples.

Results

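Genes for the subunits of the serine/threonine protein phosphatases PP1, PP2A, calcineurin (PP3), PP4, PP5 and PP6 were examined in RNA from mouse prefrontal cortex (PFC). Members were the protein-coding genes whose mouse symbol starts with Ppp1 to Ppp6 followed by c (a catalytic subunit) or r (a regulatory subunit), leaving out Ppp1r1b. The rule found 74 of the 39056 genes in the count table, of which 42 have symbols starting Ppp1, 16 Ppp2, 5 Ppp3, 6 Ppp4, 1 Ppp5 and 4 Ppp6. A gene was tested when it had at least 500 reads summed over all libraries and was detected in at least 3 of them. This left 65 members among 14072 genes. The members nearest to that limit were Ppp1r3b, kept with 615 reads in all, and Ppp1r36, left out with 276.

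These enzymes remove phosphate from serine and threonine. A small set of catalytic subunits is shared among many regulatory subunits, which hold the enzyme at a place in the cell, choose its substrates or inhibit it. In neurons, PP1 and calcineurin are known for opposing kinases at the synapse during long-term depression, PP2A for acting on tau and on kinase cascades, and PP1 held by Ppp1r15a or Ppp1r15b for removing phosphate from the translation factor eIF2alpha.

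The study asked how ethanol, given alone or with the PARP inhibitor ABT-888, changes the RNA bound to ribosomes and the total RNA of the PFC. All 11 mice were males aged 8 to 12 weeks on a C57BL/6J background that carried a CaMKIIα-tTA driver and a tetO-EGFP/Rpl10a reporter, so that a tagged ribosomal protein is made in cells using the CaMKIIα promoter. Injections were intraperitoneal, 2 a day for 4 days, and tissue was taken 2 h after the last one. Control mice (n = 3) received saline, EtOH mice (n = 4) received ethanol to 2 g/kg a day, and EtOH + ABT-888 mice (n = 4) received the same ethanol and ABT-888 at 25 mg/kg on the last day. Each mouse gave a TRAP library, made from RNA pulled down with the tagged ribosomes, and a total-RNA library from the same homogenate, which holds RNA of all cell types. Values are listed below in the order of mice 1, 4 and 7 for Control, 2, 5, 8 and 9 for EtOH, and 3, 6, 10 and 11 for EtOH + ABT-888.

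TRAP libraries held 6570957 to 22002618 counted reads and total-RNA libraries 22132534 to 32421392. Levels are given as CPM, the read count scaled to library size. Markers of the cell types were read first, because they moved with several results. In Control mice, all 6 markers of each of 4 lists (astrocytes, microglia, oligodendrocytes, endothelial and mural cells) were lower in TRAP. The 6 striatal projection neuron markers, among them Drd1, Drd2 and Adora2a, were all higher in TRAP, with a summed level of 7804 to 9463 CPM against 1119 to 1493 CPM in total-RNA. Slc17a7, the vesicular glutamate transporter of cortical excitatory neurons, was lower in TRAP in Control mice, as were Tbr1, Cux2 and Neurod6. Of the 6 inhibitory neuron markers, Gad1, Gad2 and Slc32a1 were higher in TRAP and Pvalb lower, with a summed level of 1827 to 1913 CPM against 802 to 865 CPM. The TRAP libraries therefore do not carry the marker profile of cortical pyramidal neurons alone, and they are called TRAP libraries throughout. In bulk samples, a change in the number of cells of a type and a change in RNA per cell cannot be told apart.

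Per kilobase of exon, 2 calcineurin genes had the highest levels of the members in Control_TRAP. Ppp3r1, the calcium-binding regulatory subunit of calcineurin, had the highest level at 387 ± 35.5 CPM per kb (SD, n = 3), followed by Ppp3ca, a calcineurin catalytic subunit, at 308 ± 21.6 CPM per kb. The other catalytic genes of calcineurin were lower, Ppp3cb at 82.4 ± 4.68 and Ppp3cc at 4.77 ± 0.993 CPM per kb. Ppp1ca, a PP1 catalytic subunit, at 208 ± 4.41 and Ppp2r2c, a neuronal PP2A targeting subunit, at 201 ± 23.9 CPM per kb came next and did not differ beyond their spread. Ppp1r9b (spinophilin, which holds PP1 at dendritic spines) at 125 ± 48.7 and Ppp2r1a (the main PP2A scaffold) at 124 ± 3.92 CPM per kb were likewise not separable. In Control_total-RNA the order was Ppp3r1 at 289 ± 17.8, Ppp2r2c at 149 ± 11.6, Ppp3ca at 116 ± 6.81 and Ppp2r1a at 103 ± 4.88 CPM per kb. The scaffold Ppp2r1b, whose exons overlap Sik2 on the other strand over 1429 bases, stood at 0.783 ± 0.0849 CPM per kb in Control_TRAP. The 9 members under the read limit were Ppp1r14d, Ppp1r17, Ppp1r1c, Ppp1r27, Ppp1r32, Ppp1r36, Ppp1r3a, Ppp1r42 and Ppp3r2, and Ppp1r27 had 0 reads in all 22 libraries. Exons of Ppp3r1 overlap those of Wdr92 over 462 bases, so its level may include reads of that gene.

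The bases before the start site are shown for the 4 members with the largest rises with EtOH among those that passed the test (values below). Ppp1r2, Ppp1r15a and Ppp2r5b had 1 RefSeq start site each and Ppp1r9a had 2. Each line holds the 250 bases before the start site, 5′ to 3′ on the gene's strand, from RefSeq on GRCm38.p6. Capitals mark matches on either strand to 4 motifs: the cyclic AMP response element TGACGTCA, its half-site TGACG (which also lies inside the full element), the E-box CACGTG and the GC box GGGCGG.
Ppp1r2, chr16:31275278-31275527, minus strand: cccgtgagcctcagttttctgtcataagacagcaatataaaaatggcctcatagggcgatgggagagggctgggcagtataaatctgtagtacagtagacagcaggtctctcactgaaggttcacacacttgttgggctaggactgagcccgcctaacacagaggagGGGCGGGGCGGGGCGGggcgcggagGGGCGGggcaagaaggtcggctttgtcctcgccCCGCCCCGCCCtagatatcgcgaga
Ppp2r5b, chr19:6235841-6236090, minus strand: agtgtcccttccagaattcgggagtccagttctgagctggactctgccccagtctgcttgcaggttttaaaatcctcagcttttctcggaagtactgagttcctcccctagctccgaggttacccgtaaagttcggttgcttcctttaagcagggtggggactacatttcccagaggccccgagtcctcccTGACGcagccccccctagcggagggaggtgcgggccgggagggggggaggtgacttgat
Ppp1r15a, chr7:45526269-45526518, minus strand: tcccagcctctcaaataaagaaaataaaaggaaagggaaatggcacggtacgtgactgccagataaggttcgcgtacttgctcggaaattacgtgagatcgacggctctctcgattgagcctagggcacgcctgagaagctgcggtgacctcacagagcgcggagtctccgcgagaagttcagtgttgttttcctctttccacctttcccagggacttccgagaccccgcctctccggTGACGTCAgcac
Ppp1r9a, first start site, chr6:4902725-4902974, plus strand: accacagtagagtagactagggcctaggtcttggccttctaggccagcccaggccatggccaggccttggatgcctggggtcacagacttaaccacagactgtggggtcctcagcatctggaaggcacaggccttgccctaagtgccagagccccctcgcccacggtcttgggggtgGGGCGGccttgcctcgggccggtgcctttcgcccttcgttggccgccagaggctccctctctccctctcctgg
Ppp1r9a, second start site, chr6:4903061-4903310, plus strand: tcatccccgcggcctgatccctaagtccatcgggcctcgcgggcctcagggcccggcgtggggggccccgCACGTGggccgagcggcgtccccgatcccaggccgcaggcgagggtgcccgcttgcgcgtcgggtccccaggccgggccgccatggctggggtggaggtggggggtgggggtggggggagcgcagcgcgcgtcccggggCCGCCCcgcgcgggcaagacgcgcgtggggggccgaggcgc

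No motif was shared by all 4 genes. The Ppp1r2 window held 6 GC boxes, the farthest beginning 83 bases before the start site, and each of the other 4 windows had at most 1. The Ppp1r15a window held the only full cyclic AMP response element of the 4 genes, beginning 12 bases before the start site, and Ppp2r5b a half-site 59 bases before it. Over all 32851 RefSeq windows of this length, the full element was in 1.55%, the half-site in 17.8%, the E-box in 6.02% and the GC box in 32.7%. Among the 72 windows of the 59 members with an entry, the shares were 6.94%, 31.9%, 4.17% and 62.5%. These are letter matches, and binding was not measured.

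EtOH changed 9 of the 65 members in TRAP (EtOH_TRAP vs Control_TRAP). Ppp1r2 (3.3-fold) and Ppp2r5b (3.14-fold) rose most among the 9, Ppp1r9a, Ppp2r3a, Ppp2r5d, Ppp1r13b and Ppp1r7 rose less, and Ppp1r11 and Ppp2r5a fell. All 9 are regulatory subunits, and none of the 11 catalytic genes passed the test. With 11 catalytic genes and 5.24% of all genes called, this does not set the catalytic genes apart. Here and below, a gene passed when its adjusted p in edgeR's quasi-likelihood test, Benjamini-Hochberg adjusted over the 14072 genes, was under 0.05. The 9 members are 13.8% of those tested, against 5.24% of all genes. In this comparison 10.8% of members were higher and 3.08% lower, against 2.77% and 2.47% of all genes. At an unadjusted p under 0.05 the shares were close, 24.6% of members and 23.1% of all genes, and the median log2 fold change was 0.01 for members and 0.02 for all genes. The count rested on the small Control group: it was 2 without any of the Control_TRAP libraries of mouse 1, 4 or 7, namely Ppp1r2 and Ppp2r5b, and 5 without EtOH_TRAP of mouse 5. The share of all genes called fell in the same fits, to between 0.597% and 0.796% without a Control_TRAP library and to 2.64% without mouse 5. The summed striatal markers were 6025 to 7579 CPM in EtOH_TRAP, below the 7804 to 9463 CPM of Control_TRAP, with a median log2 fold change of -0.25 over the 6 genes, of which Drd2 fell. The 6 microglial markers had a median of -0.71, of which P2ry12 fell, and Neurod6, a marker of excitatory neurons, fell too. The part of these markers in the results was not tested.

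**Figure D1:**
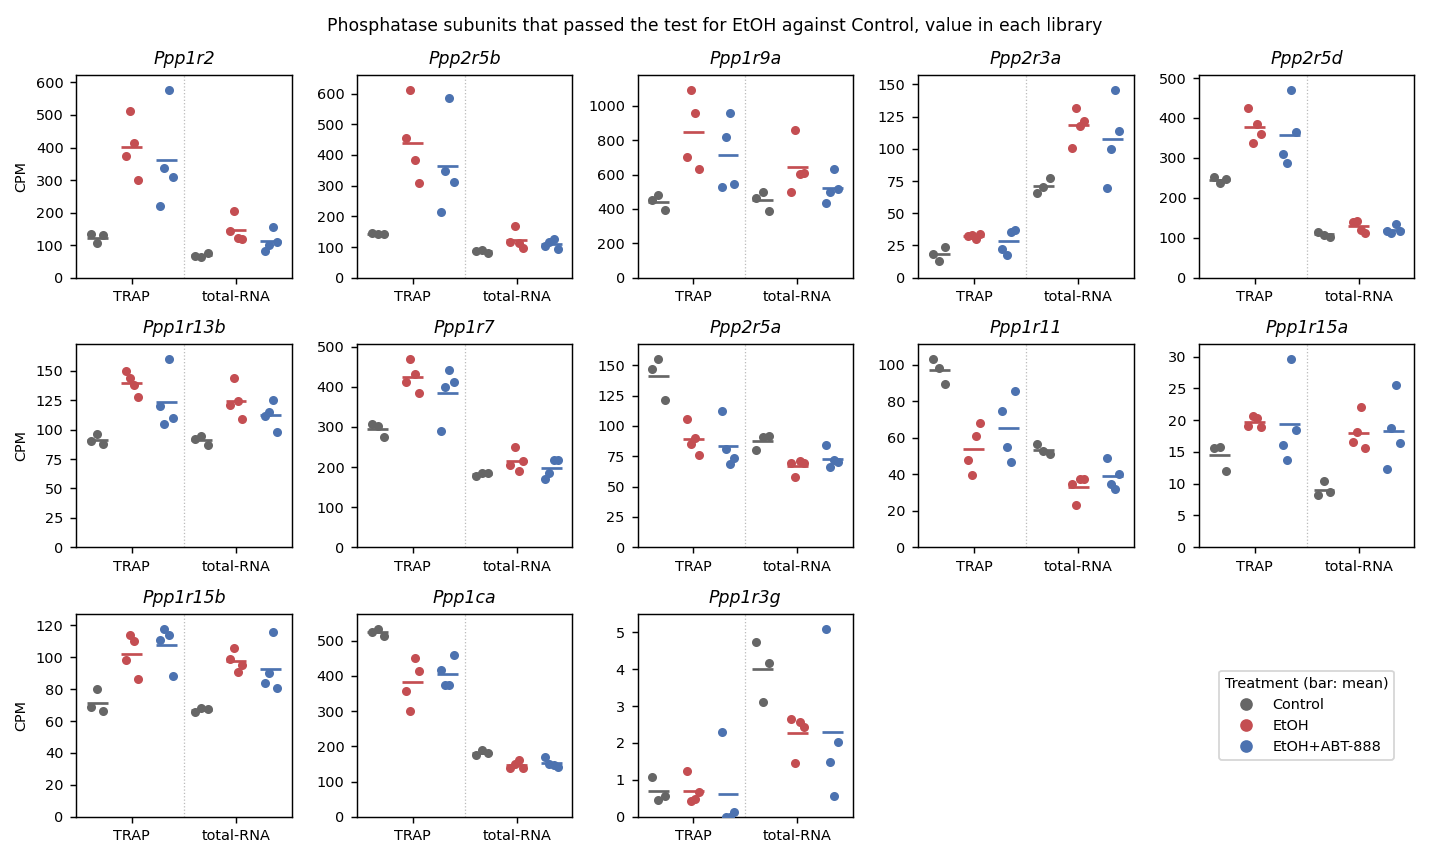
Level in CPM of each of the 13 members that passed the test for EtOH against Control in TRAP or total-RNA, one point per library (3 Control, 4 EtOH and 4 EtOH + ABT-888 mice in each pool) with a bar at the group mean. For Ppp1r2, all EtOH_TRAP libraries lay between 300 and 513 CPM, above the 106 to 133 CPM of Control_TRAP.

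Among the PP1 inhibitors, Ppp1r2 and Ppp1r11 moved in opposite directions in both pools. Ppp1r2 (chr16:31251537-31275277) encodes inhibitor-2, which binds the PP1 catalytic subunit directly. In TRAP it measured 133, 106 and 130 CPM in Control and 373, 513, 415 and 300 CPM in EtOH. The groups were far apart, with every EtOH library more than double the highest Control library. The log2 fold change was 1.72 (SE 0.19; 3.3-fold; adjusted p = 0.00226), and the test was passed without any one library. In total-RNA Ppp1r2 measured 67.4, 64.6 and 77 CPM in Control and 145, 204, 123 and 120 CPM in EtOH. The groups again did not overlap, and mouse 5 was the highest EtOH mouse in both pools. The log2 fold change in total-RNA was 1.09 (SE 0.17; adjusted p = 0.00155). Processed copies of Ppp1r2 could take up reads, but all their rows together held 2413 reads against 91701 for Ppp1r2.

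Ppp1r11 (chr17:36948356-36951741) encodes inhibitor-3, another small PP1 inhibitor. It measured 103, 97.9 and 89.4 CPM in Control_TRAP and 47.7, 39.3, 61 and 68.2 CPM in EtOH_TRAP. It fell by 0.82 on the log2 scale (SE 0.19; adjusted p = 0.0279). In total-RNA it measured 56.7, 52.5 and 50.8 CPM in Control and 34.4, 23, 37.6 and 37.2 CPM in EtOH, and fell by 0.69 (SE 0.15; adjusted p = 0.0108). All EtOH libraries were below all Control libraries in both pools. The call in TRAP held in 2 of the 7 fits that left out 1 library, with an adjusted p of up to 0.131. The other inhibitors tested (Ppp1r1a, Ppp1r14a, Ppp1r14b and Ppp1r14c) did not pass with EtOH in either pool.

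In PP2A, the members that passed in TRAP were 3 of the 5 B' (R5) genes and 1 of the 3 B'' (R3) genes. In total-RNA they were 2 of the B' genes and 1 of the B'' genes. Of all genes, 5.24% were called in TRAP and 17.6% in total-RNA. These targeting subunits choose the substrates of the core enzyme. Ppp2r5b (chr19:6227765-6235872), the B' beta subunit, measured 145, 141 and 141 CPM in Control_TRAP and 456, 613, 384 and 307 CPM in EtOH_TRAP. The 3 Control libraries were nearly the same and the lowest EtOH library was about double them. The log2 fold change was 1.65 (SE 0.21; 3.14-fold; adjusted p = 0.0029), and it passed without any one library. In total-RNA the levels were 87.5, 91.1 and 79.8 CPM in Control and 117, 170, 112 and 96.5 CPM in EtOH, a log2 fold change of 0.53 (SE 0.16; adjusted p = 0.0391). The rise was thus less in total-RNA by size, and the test of that difference, the interaction of EtOH with pool, gave a log2 difference of 1.10 (SE 0.36; edgeR adjusted p = 0.786). The difference between pools therefore did not pass. The total-RNA call held in 3 of the 7 fits without 1 library, with an adjusted p of up to 0.139.

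Ppp2r5d (chr17:46682991-46705111), the B' delta subunit, measured 252, 237 and 246 CPM in Control_TRAP and 426, 338, 386 and 360 CPM in EtOH_TRAP. The groups did not overlap, and the log2 fold change was 0.64 (SE 0.13; adjusted p = 0.0182). In total-RNA its groups overlapped (103 to 114 CPM against 113 to 143 CPM) and the difference of 0.25 did not pass (SE 0.11; adjusted p = 0.121). Ppp2r5a (chr1:191351975-191403272), the B' alpha subunit, went the other way. It measured 147, 155 and 121 CPM in Control_TRAP and 106, 84.8, 89.8 and 76.3 CPM in EtOH_TRAP, and fell by 0.64 (SE 0.15; adjusted p = 0.0319). In total-RNA it fell by 0.38 (SE 0.11; adjusted p = 0.0291), from 80 to 91.5 CPM in Control to 58.1 to 70.8 CPM in EtOH. The remaining B' genes, Ppp2r5c and Ppp2r5e, did not pass with EtOH in either pool.

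Ppp2r3a (chr9:101105084-101251795) encodes a calcium-binding B'' subunit. It measured 18.1, 12.7 and 23.5 CPM in Control_TRAP and 32.2, 33, 30.3 and 33.7 CPM in EtOH_TRAP, a log2 fold change of 0.85 (SE 0.21; adjusted p = 0.0398). The EtOH libraries were close together and above the Control libraries, but the call in TRAP held in only 1 of 7 fits without 1 library. In total-RNA it measured 65.9, 70.7 and 77.5 CPM in Control and 101, 132, 118 and 122 CPM in EtOH. There the log2 fold change was 0.73 (SE 0.12; adjusted p = 0.00179) and it passed without any one library. The other B'' genes, Ppp2r3c and Ppp2r3d, did not pass in either pool. The PP2A catalytic genes Ppp2ca and Ppp2cb, the scaffolds Ppp2r1a and Ppp2r1b, and the 4 B (R2) genes did not pass with EtOH in either pool. For Ppp2ca the log2 fold change with EtOH was 0.06 in TRAP (SE 0.16) and 0.04 in total-RNA (SE 0.10).

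Of the subunits that hold PP1 at the actin of dendritic spines, Ppp1r9a passed and Ppp1r9b did not. Ppp1r9a (neurabin; chr6:4902917-5165661) measured 453, 480 and 394 CPM in Control_TRAP and 704, 1094, 955 and 633 CPM in EtOH_TRAP. The groups did not overlap and the log2 fold change was 0.96 (SE 0.20; adjusted p = 0.0194). In total-RNA the levels were 462, 500 and 388 CPM in Control and 496, 860, 605 and 608 CPM in EtOH. The total-RNA groups overlapped by 1 library, and the log2 fold change was 0.51 (SE 0.16; adjusted p = 0.0424), held in 2 of 7 fits without 1 library. Ppp1r9b, its paralog spinophilin, varied widely within groups: 613, 892 and 399 CPM in Control_TRAP and 799, 1194, 608 and 497 CPM in EtOH_TRAP, with a log2 fold change of 0.31 (SE 0.30; adjusted p = 0.571). Whether the 2 paralogs differed from each other was not tested.

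A further pair of PP1 subunits rose in TRAP. Ppp1r13b (chr12:111828457-111908110), a partner of p53 in apoptosis, rose from 88.2 to 95.9 CPM in Control_TRAP to 128 to 150 CPM in EtOH_TRAP, with a log2 fold change of 0.63 (SE 0.13; adjusted p = 0.0196). In total-RNA it rose from 87.3 to 94.3 CPM to 109 to 144 CPM (log2 fold change 0.45, SE 0.11; adjusted p = 0.0152). Ppp1r7 (chr1:93342854-93373489), a conserved subunit also called Sds22, measured 307, 303 and 275 CPM in Control_TRAP and 412, 469, 431 and 385 CPM in EtOH_TRAP. Its log2 fold change was 0.55 (SE 0.13; adjusted p = 0.0384) in TRAP, and 0.25 (SE 0.11; adjusted p = 0.114) in total-RNA. Exons of Ppp1r7 overlap those of Pask on the other strand over 225 bases, and whether counting used strand is not given in the sources used here.

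In total-RNA, EtOH changed 11 of the 65 members (EtOH_total-RNA vs Control_total-RNA), 7 up and 4 down. This was 16.9% of members against 17.6% of all genes, with 10.8% higher and 6.15% lower against 9.04% and 8.6%, so the shares called were close. At an unadjusted p under 0.05 they were 43.1% of members and 33.9% of all genes. The 7 members that passed in both pools (Ppp1r11, Ppp1r13b, Ppp1r2, Ppp1r9a, Ppp2r3a, Ppp2r5a and Ppp2r5b) are 77.8% of the members' TRAP calls and 63.6% of their total-RNA calls, against 59.3% and 17.6% over all genes. Each moved in the same direction in TRAP and total-RNA, which come from the same mice, as did 99.5% of all genes called in both. The count was 4 without Control_total-RNA of mouse 1, 5 without that of mouse 4 or of mouse 7, 7 without EtOH_total-RNA of mouse 5 and 18 without that of mouse 9. The share of all genes called moved alike, from 6.24% to 8.71% without a Control library to 11.6% without mouse 5 and 25.7% without mouse 9. It was 2 (Ppp1r2 and Ppp1r15a) when all 22 libraries shared 1 estimate of the spread, where 1.07% of all genes were called. The summed microglial markers were 330 to 337 CPM in Control_total-RNA and 130 to 191 CPM in EtOH_total-RNA, with 5 of 6 lower. The summed inhibitory neuron markers were 802 to 865 CPM and 915 to 1004 CPM, with Gad2 higher. Neurod6 and the endothelial markers Tek and Flt1 were lower, Gfap and Aqp4 of the astrocyte list parted, 1 higher and 1 lower, and Mobp of the oligodendrocyte list was higher. The part of these markers in the results was not tested.

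**Figure D2:**
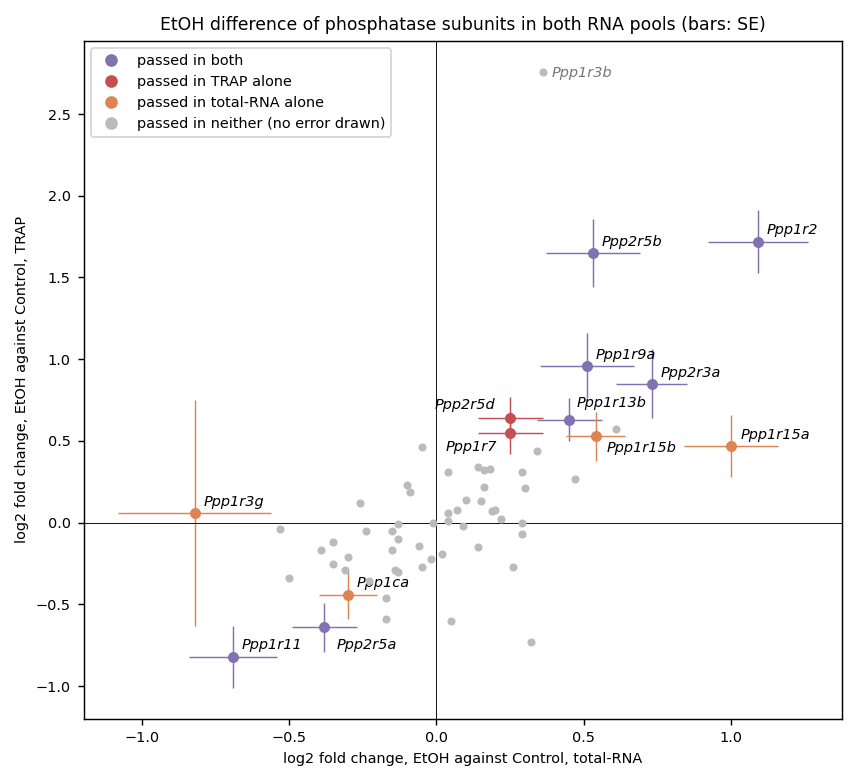
Log2 fold change of EtOH against Control for the 65 tested members, in total-RNA (horizontal) and TRAP (vertical), with SE bars for the 13 that passed in a pool. Ppp1r2 lay highest in both pools among those that passed (1.72 in TRAP and 1.09 in total-RNA), and Ppp1r3b, at 2.76 in TRAP, rests on 3 Control_TRAP reads.

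The subunits that direct PP1 to eIF2alpha both rose in total-RNA. Ppp1r15a (Gadd34, which is induced by stress; chr7:45522916-45526268) measured 8.14, 10.4 and 8.65 CPM in Control_total-RNA and 16.5, 18.1, 22 and 15.6 CPM in EtOH_total-RNA. The groups did not overlap, the log2 fold change was 1.00 (SE 0.16; adjusted p = 0.00197), and it passed without any one library. In TRAP the levels were 15.6, 15.8 and 12 CPM in Control and 19, 20.7, 20.3 and 18.9 CPM in EtOH. These groups did not overlap either, but the difference of 0.47 did not pass (SE 0.19; adjusted p = 0.169). The interaction of EtOH with pool was -0.55 (SE 0.34; edgeR adjusted p = 1), so the pools are not shown to differ. Ppp1r15b (CReP, the constitutively expressed paralog of Ppp1r15a; chr1:133131143-133139783) measured 65.9, 68.3 and 67.3 CPM in Control_total-RNA and 98.9, 106, 90.5 and 95.4 CPM in EtOH_total-RNA. The 3 Control libraries were nearly equal and all 4 EtOH libraries stood above them, with a log2 fold change of 0.54 (SE 0.10; adjusted p = 0.0036). In TRAP its log2 fold change was 0.53 (SE 0.15; adjusted p = 0.066), under the limit in 4 of the 6 other analyses of all libraries. Exons of Ppp1r15b overlap those of Gm26616 on the other strand over 640 bases.

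Ppp1ca and Ppp1r3g completed the total-RNA calls. Ppp1ca (chr19:4192065-4195420) was the sole catalytic gene among them. It measured 175, 190 and 182 CPM in Control_total-RNA and 139, 150, 162 and 138 CPM in EtOH_total-RNA, and fell by 0.30 (SE 0.10; adjusted p = 0.0466). The groups did not overlap, but the call lay close to the limit and held in 3 of 6 other analyses and in 1 of 7 fits without 1 library. In TRAP, Ppp1ca measured 525, 534 and 512 CPM in Control and 358, 301, 451 and 415 CPM in EtOH, a log2 fold change of -0.44 (SE 0.15; adjusted p = 0.107). Exons of Ppp1ca overlap those of Rad9a over 225 bases and AC109138.6 over 191 bases on the other strand. Ppp1r3g (chr13:35958839-35970388), a glycogen-targeting subunit, was scarce in total-RNA at 4.74, 3.11 and 4.18 CPM in Control and 2.64, 1.45, 2.57 and 2.43 CPM in EtOH, and fell by 0.82 (SE 0.26; adjusted p = 0.0446). It held in 1 of 7 fits without 1 library.

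Within the PP1 catalytic genes, Ppp1ca made up less of the family with EtOH, as a share of CPM per kb. In total-RNA its share was 63.2% ± 2.23 (SD, n = 3) in Control and 52.9% ± 2.44 (n = 4) in EtOH, with ranges of 60.7% to 64.7% and 49.6% to 55.4%. Ppp1cb took 30.9% ± 2.14 and 39.4% ± 2.82, and Ppp1cc 5.85% ± 0.0912 and 7.67% ± 0.665. In Control_TRAP the shares were 77.9% ± 0.837 for Ppp1ca, 16.3% ± 0.791 for Ppp1cb and 5.83% ± 0.0691 for Ppp1cc. In EtOH_TRAP, Ppp1cc took 9.82% ± 0.947, above all 3 Control_TRAP libraries. In PP2A, the share of Ppp2ca in total-RNA was 39% to 41.5% in Control and 42.1% to 44.1% in EtOH, which did not overlap, and in TRAP 37.5% to 39.1% and 37.7% to 44.7%, which did. Exons of Ppp1cb overlap Gm43312 on the same strand over 1908 of 10913 bases and those of Ppp2ca 9430098F02Rik on the other strand over 2985 of 7490 bases, so these shares may include or miss reads of other genes. These shares are descriptions. Of the 3 PP1 genes, only Ppp1ca in total-RNA passed the test across all genes, and Ppp1cc had a log2 fold change with EtOH of 0.44 in TRAP (SE 0.15; adjusted p = 0.1) and 0.34 in total-RNA (SE 0.12; adjusted p = 0.0682).

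**Figure D3:**
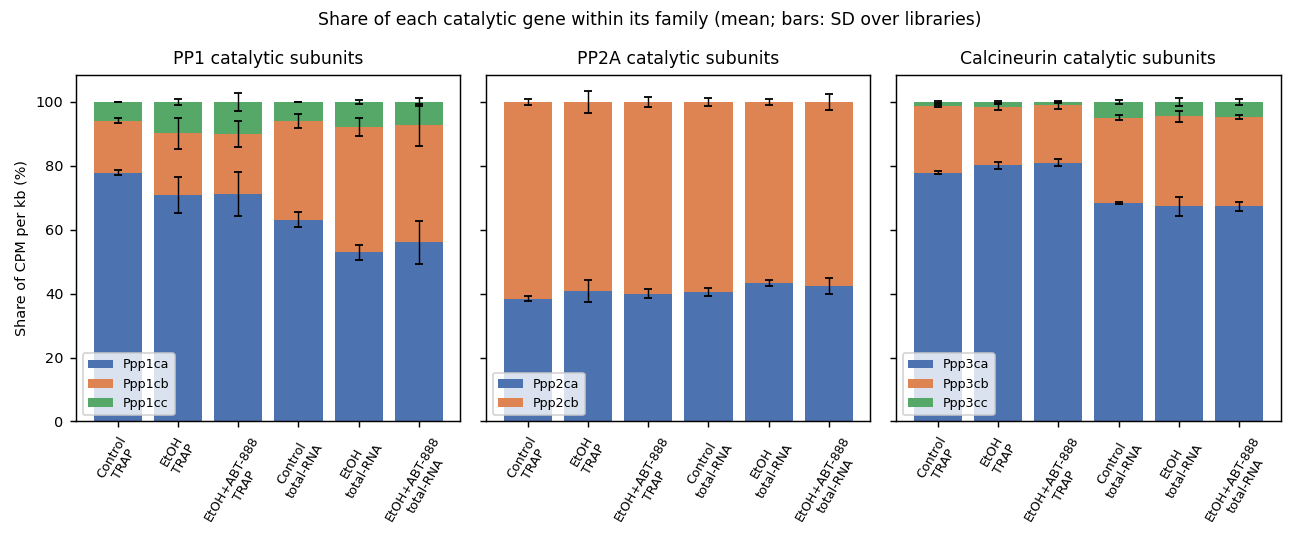
Share of the CPM per kb of each family held by each catalytic gene of PP1, PP2A and calcineurin in the 6 groups, as stacked means with SD bars over the 3 or 4 libraries of a group. In total-RNA, the mean share of Ppp1ca in PP1 was 63.2% in Control and 52.9% in EtOH, and that of Ppp2ca in PP2A 40.4% and 43.3%.

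No gene of calcineurin (4 tested), PP4 (6), PP5 (1) or PP6 (4) passed with EtOH in either pool. With so few genes and a share of 5.24% of all genes called in TRAP and 17.6% in total-RNA, this count sets none of these families apart. Ppp3ca, the calcineurin catalytic gene that made up 77.9% ± 0.501 of its family per kb in Control_TRAP, measured 2977, 3324 and 2928 CPM in Control_TRAP and 2445, 3463, 3971 and 2902 CPM in EtOH_TRAP. The EtOH libraries spread on both sides of Control, and the log2 fold change was 0.08 (SE 0.17; adjusted p = 0.823). As a description, its share of the calcineurin catalytic genes in TRAP was 77.5% to 78.5% in Control and 79.1% to 81.3% in EtOH, and that of Ppp3cb 20.6% to 21.1% and 17.4% to 19.5%, neither overlapping. In total-RNA both shares overlapped between Control and EtOH. Among the other catalytic genes, the EtOH log2 fold change in TRAP was -0.15 for Ppp3cb (SE 0.17), 0.23 for Ppp3cc (SE 0.21), -0.02 for Ppp4c (SE 0.16), 0.12 for Ppp5c (SE 0.14) and 0.02 for Ppp6c (SE 0.18). In total-RNA their log2 fold changes ran from -0.26 for Ppp5c (SE 0.11) to 0.22 for Ppp6c (SE 0.10).

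With ABT-888 added to EtOH, fewer members passed against Control. In TRAP, 1 of the 65 members passed (EtOH + ABT-888_TRAP vs Control_TRAP), against 0.476% of all genes. This was Ppp1r2, at 220, 336, 578 and 308 CPM, all above Control, with a log2 fold change of 1.57 (SE 0.28; adjusted p = 0.0335). No member passed without any of the Control_TRAP libraries or without mouse 6 or 11, fits in which 0% of all genes passed, whereas 4 passed without mouse 3 (2.65% of all genes) and 2 without mouse 10 (1.26%). Ppp2r5b measured 213, 349, 586 and 311 CPM, also all above Control, and missed the limit with a log2 fold change of 1.38 (SE 0.28; adjusted p = 0.0565). DESeq2 called 4 members here (2.99% of all genes) and edgeR's exact test 3 (2.25%). At an unadjusted p under 0.05 the shares were 20% of members and 12.1% of all genes. The summed oligodendrocyte markers ran from 318 to 1458 CPM in these TRAP libraries, against 339 to 441 CPM in Control_TRAP, with none of the 6 called, and Neurod6 was called lower. The part of these markers in the results was not tested.

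In total-RNA, 0 of the 65 members passed against Control by the quasi-likelihood test, against 0.263% of all genes, 13 had an unadjusted p under 0.05 (20%, against 15.9% of all genes), and DESeq2 and the exact test called 3 each, with 4.41% and 3.87% of all genes. Without mouse 3 of EtOH + ABT-888_total-RNA the count was 5, with 6.18% of all genes called. Ppp1r15a measured 12.3, 18.7, 25.6 and 16.4 CPM, all above Control, with a log2 fold change of 1.01 (SE 0.24; adjusted p = 0.0974). Ppp1r2 measured 81, 99.2, 156 and 109 CPM, again all above Control, with a log2 fold change of 0.68 (SE 0.20; adjusted p = 0.151). Both comparisons with Control share the Control libraries, so the EtOH and EtOH + ABT-888 values are given side by side only. The summed microglial markers were 130 to 273 CPM in EtOH + ABT-888_total-RNA, against 330 to 337 CPM in Control_total-RNA, with none of the 6 called. Neurod6 was called lower. The part of these markers in the results was not tested.

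In the direct comparison of EtOH + ABT-888 with EtOH, the quasi-likelihood test called no member. It called 0 members and 0% of all genes in TRAP, and 0 members and 0% of all genes in total-RNA. In both pools 0 members had an unadjusted p under 0.05, against 0.966% of all genes in TRAP and 1.91% in total-RNA, and DESeq2 and the exact test also called 0 members. Each of these tests called 0% of all genes in TRAP and 0.0142% in total-RNA. For Ppp1r2 the log2 difference was -0.15 in TRAP (SE 0.26) and -0.41 in total-RNA (SE 0.21). For Ppp2r5b it was -0.27 (SE 0.28) and -0.19 (SE 0.17), for Ppp1r9a -0.25 (SE 0.24) and -0.30 (SE 0.17), and for Ppp1r11 0.27 (SE 0.23) and 0.24 (SE 0.18). These errors leave room for differences of the size of the estimates or larger. A member that passed against Control with EtOH and not with EtOH + ABT-888 is thus not shown to differ between the treatments.

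The EtOH + ABT-888 mice differed among themselves in a recurring order. Measured from the Control mean toward the EtOH mean on the log2 scale, mouse 10 lay farthest for 8 of the 9 members called with EtOH in TRAP and for 9 of the 11 called in total-RNA. Mouse 3 lay nearest to Control for 5 of the 9 and 8 of the 11. For Ppp1r2 in TRAP, mouse 3 stood at 49% of the distance and mouse 10 at 131%. For Ppp2r3a in total-RNA, mouse 3 stood at -4% and mouse 10 at 142%. Among EtOH mice, mouse 5 was farthest from Control for 5 of the 9 members in TRAP and 9 of the 11 in total-RNA. The summed microglial markers in total-RNA had the same ends of the order: among EtOH + ABT-888 mice, mouse 3 had the highest sum (273 CPM, nearest to the 330 to 337 CPM of Control) and mouse 10 the lowest (130 CPM), and among EtOH mice, mouse 5 had the lowest (130 CPM). In the EtOH + ABT-888_total-RNA libraries the summed striatal markers were also highest in mouse 3 (1338 CPM) and lowest in mouse 10 (886 CPM). The summed astrocyte markers ran the other way, lowest in mouse 3 (915 CPM) and highest in mouse 10 (1117 CPM). In the inhibitory neuron, oligodendrocyte and endothelial lists, mice 3 and 10 were not both at the ends. The part of these markers in the order of the mice was not tested. Members of 1 mouse share a library, so these counts describe the mice and are not independent observations. The order was not computed over all genes, so it is not shown to be particular to these members. The members were called with the same EtOH libraries, so the counts of mouse 5 follow in part from that choice.

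Comparing TRAP with total-RNA within each treatment, without pairing the libraries of a mouse, 40 of 65 members differed in Control (61.5%, against 59.9% of all genes), 27 higher in TRAP and 13 lower. The shares were 41.5% and 20%, against 29.5% and 30.4% of all genes. In EtOH mice 37 differed, 56.9% against 50.7%, of which 24 were higher (36.9% against 24.3%) and 13 lower (20% against 26.5%). In EtOH + ABT-888 mice 31 differed, 47.7% against 41%, of which 22 were higher (33.8% against 19.5%) and 9 lower (13.8% against 21.5%). The median log2 fold change of the members was 0.21, 0.18 and 0.22 in the 3 treatments, against 0.02, 0.03 and 0.05 for all genes. Across the treatments 20 members were higher in TRAP each time, 8 were lower each time, 0 changed sides and 21 passed in none. These are 30.8%, 12.3%, 0% and 32.3% of the members, against 16.8%, 19.2%, 0.114% and 33.1% of all genes. With the mouse as block the counts were 23, 11, 0 and 17, for which shares of all genes were not computed. The block also raised the share of all genes called, to 62.5%, 58.8% and 54.3% in the 3 treatments. The rise in members is therefore not shown to be particular to them. All of the 20 and the 8 kept their place with the block, and Ppp1r12a, Ppp1r9a, Ppp6c and Ppp6r2 then passed in at least 1 treatment. The 20 were Ppp1ca, Ppp1cc, Ppp1r11, Ppp1r12c, Ppp1r16b, Ppp1r1a, Ppp1r2, Ppp1r37, Ppp1r7, Ppp1r8, Ppp2r2a, Ppp2r2c, Ppp2r2d, Ppp2r5b, Ppp2r5d, Ppp3ca, Ppp3cb, Ppp4c, Ppp4r4 and Ppp6r1. The 8 were Ppp1r18, Ppp1r26, Ppp1r3b, Ppp1r3c, Ppp2r1b, Ppp2r3a, Ppp3cc and Ppp4r1, of which Ppp1r3b, for example, met the read limit only through total-RNA (below). In the same libraries of Control mice the markers of glia and 4 named markers of excitatory neurons were lower, and those of striatal projection neurons and 3 of inhibitory neurons higher, as given above, and their part in these differences was not tested.

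The catalytic genes differed between the pools to unequal extents, also within a family. Ppp1ca had the largest positive log2 fold change of any member in Control (1.51, SE 0.08; 2.84-fold; adjusted p = 1.29e-07), from 175 to 190 CPM in total-RNA to 512 to 534 CPM in TRAP. Ppp3ca (1.39, SE 0.09), Ppp4c (1.23, SE 0.11) and Ppp1cc (1.20, SE 0.10) were also more than double in TRAP, and each of these 4 passed in all 3 treatments. The remaining PP1 catalytic gene, Ppp1cb, passed in Control alone, at 0.28 (SE 0.09; adjusted p = 0.0235), with -0.11 in EtOH (SE 0.17) and 0.11 in EtOH + ABT-888 (SE 0.20). Ppp2ca and Ppp2cb passed in none, with log2 fold changes of -0.01 (SE 0.08) and 0.11 (SE 0.08) in Control. Ppp3cc went the opposite way from the other calcineurin catalytic genes, at -0.83 in Control (SE 0.17; adjusted p = 0.0015). Its levels were 15.5, 10.9 and 16.4 CPM in TRAP and 28.1, 21.2 and 25.7 CPM in total-RNA. The scaffold genes also parted, with Ppp2r1a higher (log2 fold change 0.25, SE 0.08; adjusted p = 0.0195) and Ppp2r1b lower in TRAP (log2 fold change -0.85, SE 0.17; adjusted p = 0.00132).

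**Figure D4:**
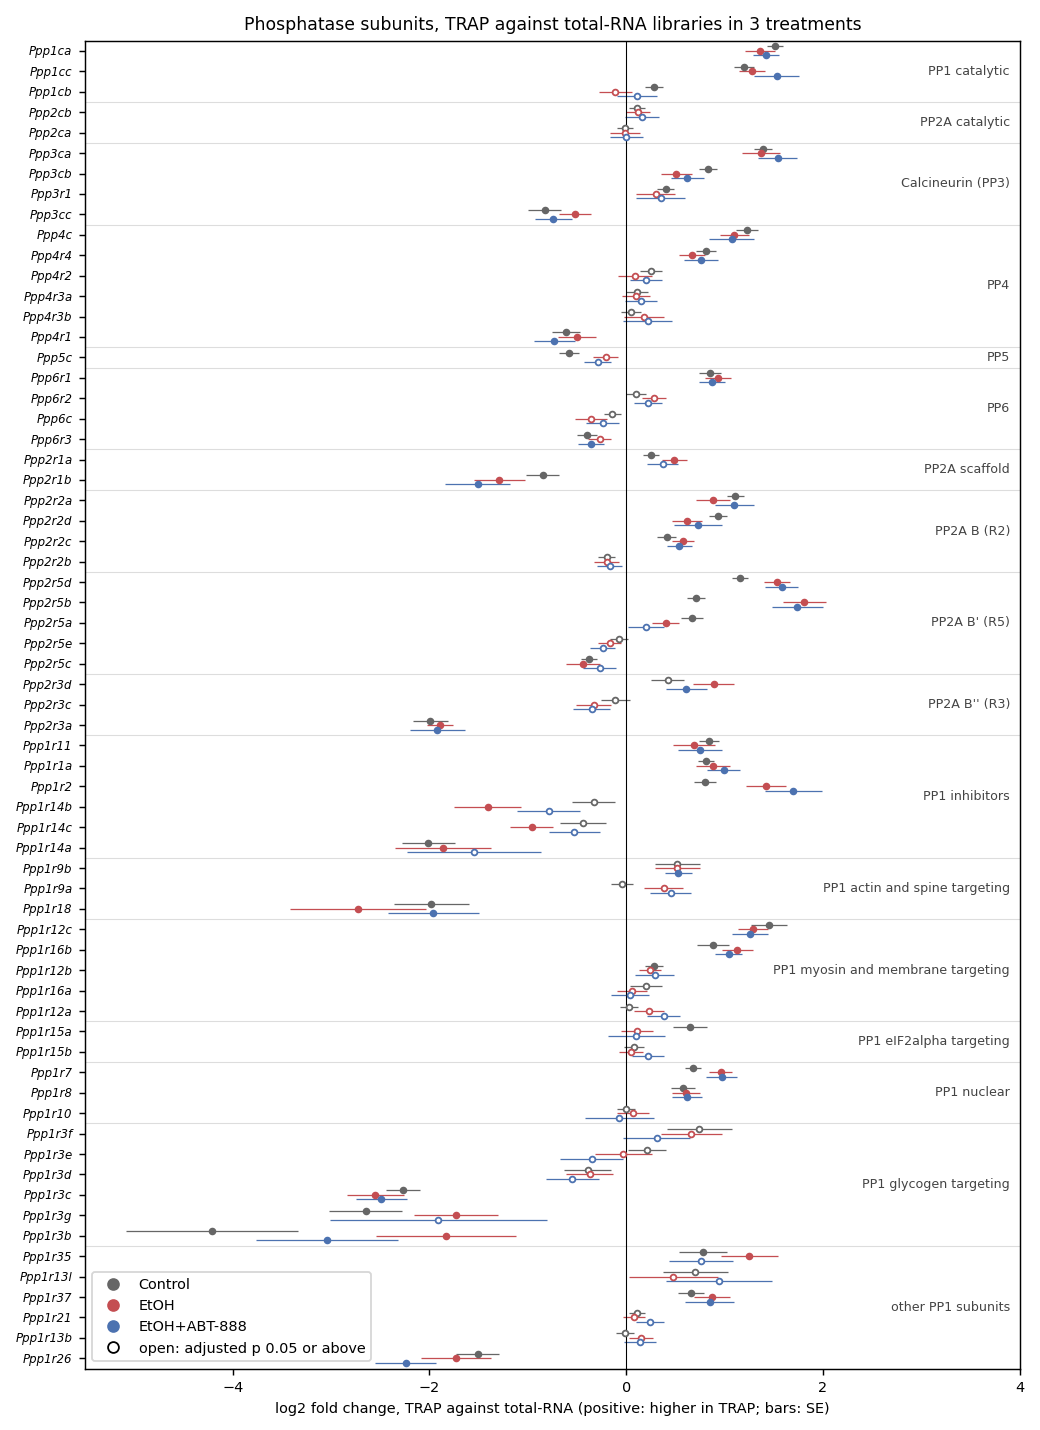
Log2 fold change of TRAP against total-RNA for the 65 tested members grouped by role, in Control, EtOH and EtOH + ABT-888 mice, with SE bars and filled points where the adjusted p was under 0.05. The 3 treatments lay side by side for most members, with Ppp1ca at 1.51 and Ppp1r3g at -2.65 in Control, and the values of Ppp1r3b rest on few TRAP reads.

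Regulatory subunits covered a wider range. Ppp1r12c, a myosin phosphatase targeting subunit, was higher in TRAP in all 3 treatments, with a log2 fold change of 1.45 in Control (SE 0.18; adjusted p = 3.13e-05) and 123, 187 and 110 CPM against 48.2, 57.1 and 46.1 CPM. Ppp2r5d was higher too, at 1.16 in Control (SE 0.08), 1.53 in EtOH (SE 0.13) and 1.58 in EtOH + ABT-888 (SE 0.17). For Ppp1r2 the values were 0.80 (SE 0.11), 1.42 (SE 0.20) and 1.70 (SE 0.29), and the interaction of EtOH with pool was 0.62 (SE 0.37; edgeR adjusted p = 1). Across all members, 0 passed the interaction test, against 0.0213% of all genes, and 3 had an unadjusted p under 0.05 (4.62%, against 4.87% of all genes). DESeq2 and edgeR's likelihood ratio test also called 0 members there, against 0.114% of all genes each.

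Of the 5 members with the most negative log2 fold change in Control, 3 target PP1 to glycogen (Ppp1r3b, Ppp1r3c and Ppp1r3g), and the others were Ppp1r14a and Ppp2r3a. Ppp1r3c (PTG, the glycogen-targeting subunit found in astrocytes among other cells) measured 13.1, 7.48 and 10.8 CPM in Control_TRAP and 47.8, 45.8 and 52.8 CPM in Control_total-RNA, a log2 fold change of -2.27 (SE 0.17; adjusted p = 1.09e-06). It was -2.55 in EtOH (SE 0.29) and -2.49 in EtOH + ABT-888 (SE 0.26). Ppp1r3g had a log2 fold change of -2.65 in Control (SE 0.37) and did not pass in EtOH + ABT-888, where it passed with the mouse as block. Ppp1r3b, the glycogen-targeting subunit of liver and muscle, had 3 reads over the Control_TRAP libraries and 115 over the Control_total-RNA libraries. Per counted read its TRAP to total-RNA ratio was 0.0478, with an exact 95% interval of 0.00972 to 0.143 that covers counting error only. Ppp1r14a, a smooth muscle inhibitor of myosin phosphatase, was -2.01 in Control (SE 0.27) and Ppp2r3a -1.99 (SE 0.18). Of the 6 glycogen-targeting genes tested, Ppp1r3d, Ppp1r3e and Ppp1r3f passed in none of the 3 treatments. The 6 astrocyte markers summed to 68.1 to 119 CPM in Control_TRAP and 1024 to 1087 CPM in Control_total-RNA, and their part in these differences was not tested.

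Genes related to these phosphatases without being named as their subunits were counted from a list of their own. The list holds PP1 partners, PP2A handling factors, calcineurin modulators and targets, and the metal-dependent phosphatases, which are enzymes of another family. Of the 49 listed, 45 were tested. With EtOH in TRAP, 2 of the 45 rose and 0 fell, where 5.24% of all genes were called. They were Strn4, a striatin that docks PP2A to kinases (log2 fold change 0.95, SE 0.17; adjusted p = 0.0122), at 201 to 243 CPM in Control and 327 to 524 CPM in EtOH, and Akap11, an anchor that binds PP1 (0.80, SE 0.20; adjusted p = 0.0398). In total-RNA, 2 of the 45 rose and 2 fell, where 17.6% of all genes were called. Akap11 (0.51, SE 0.11; adjusted p = 0.00709) and Ppm1d, a phosphatase induced by p53 (0.47, SE 0.13; adjusted p = 0.0295), rose. Pdp1, which acts on pyruvate dehydrogenase (-0.51, SE 0.12; adjusted p = 0.0153), and Arpp19, an inhibitor of PP2A (-0.38, SE 0.12; adjusted p = 0.0458), fell. None of the 45 passed with EtOH + ABT-888 against Control in either pool by the quasi-likelihood test. The 8 calcineurin modulators and targets tested, Rcan and Nfatc genes among them, had 0 calls with EtOH in TRAP and 0 in total-RNA.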

How the data were processed

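The authors aligned paired reads of rRNA-depleted libraries to mm10 with STAR, counted them with featureCounts on Ensembl annotation and deposited raw counts per gene. Versions, strand and duplicate handling are not given in the sources used here. The members and gene lists were chosen with earlier results of these data known. Gene IDs were named from GENCODE M21 (38872 of 39056), and 10 matching symbols that are not protein-coding were left out. In R 4.3.3, genes with at least 500 reads in all and detected in at least 3 libraries were tested with edgeR 4.0.16: TMM factors, the quasi-likelihood test on the groups compared (all 22 libraries for the interaction), and Benjamini-Hochberg adjustment over 14072 genes. Standard errors are the log2 fold change over the square root of F. Levels are CPM with TMM factors over all libraries, and per kb they are divided by merged exon length. Each replicate is 1 mouse. TRAP and total-RNA libraries of a mouse deviated together (r across genes from 0.102 to 0.622 in the 11 mice), so a fit with the mouse as block was an alternative. The scripts were tested on simulated data. Named genes were the members called against Control (at most 12 a comparison), the 5 most positive and 5 most negative called in TRAP against total-RNA in Control with groups that do not overlap, all catalytic genes, Ppp2r1a, Ppp2r1b, Ppp1r9a, Ppp1r9b, Ppp1r15a and Ppp1r15b, any member called in the interaction or in EtOH + ABT-888 against EtOH, and up to 6 of the list of 49 called with EtOH. Other members, such as Ppp3r1 and Ppp2r2c, are named outside this rule, for their level or to complete a group, after their values were seen.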

Additional observations from a re-analysis of the deposited data

Results flagged for a closer look

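Among the 30 named members, 120 sets of 4 libraries were examined for a value far from the other 3, and 5 were found, where chance alone gives about 1 in 20. Ppp2ca measured 512 CPM in EtOH + ABT-888_TRAP of mouse 10 (the others 369 to 379 CPM), and Ppp2cb measured 129 CPM in EtOH + ABT-888_total-RNA of the same mouse (the others 99.2 to 103 CPM). Ppp2r5a measured 58.1 CPM in EtOH_total-RNA of mouse 5 (the others 69.4 to 70.8 CPM). Ppp1r3g measured 2.3 CPM in EtOH + ABT-888_TRAP of mouse 3 (the others 0 to 0.125 CPM), and Ppp1r14a 3.35 CPM in EtOH_TRAP of mouse 2 (the others 0.65 to 0.983 CPM), both near the limit of detection.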

How the results depend on the processing

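For members called in EtOH + ABT-888_TRAP against Control_TRAP, the count of 1 became 4 with DESeq2, 4 with no filter on low counts, 3 with the exact test and 5 in a fit over all 22 libraries, and 0 to 4 without 1 library. For EtOH + ABT-888_total-RNA it went from 0 to 3 with DESeq2, with no filter and with the exact test, and 0 to 5 without 1 library. For EtOH_total-RNA it went from 11 to 2 in the fit over all libraries, and 4 to 18 without 1 library. For EtOH_TRAP it was 9, and 2 to 10 without 1 library. The cause was not tested. Over all genes, EtOH_TRAP went from 737 calls to 1523 with DESeq2, 1365 with the exact test, 1472 with no filter and 1191 in the fit over all libraries. EtOH + ABT-888_TRAP went from 67 to 420, 316, 454 and 403 in the same order. EtOH_total-RNA went from 2482 to 151 in the fit over all libraries. EtOH + ABT-888_total-RNA went from 37 to 621 with DESeq2, 544 with the exact test, 544 with no filter and 70 with edgeR's own filter. In the paired fits, with the mouse as replicate block, 41, 43 and 39 members differed between TRAP and total-RNA in Control, EtOH and EtOH + ABT-888 (62.5%, 58.8% and 54.3% of all genes), so no member count moved by over 1.5 times. In the interaction 0 members passed with the block, while all-gene calls went from 3 to 14, to 16 with DESeq2, 16 with the likelihood ratio test and 5 with no filter. Of 546 recomputations of 81 named member results with all libraries, 529 kept their call, 17 lost it and 0 changed direction. Of 581 without 1 library, 498 kept it, 83 lost it and 0 changed direction. These totals pool treatment calls with calls of TRAP against total-RNA. The latter counts of 40, 37 and 31 in Control, EtOH and EtOH + ABT-888 were 38 to 43, 31 to 37 and 27 to 33 without 1 library. The treatment counts moved more, as given above. With 3 Control mice and TRAP depths down to 6570957 reads, members near 1 CPM such as Ppp1r3b and Ppp1r3g are poorly measured.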
